A study of Sus scrofa with 12 samples.

Results

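The genes described here encode the subunits of potassium, sodium and calcium channels, including the HCN pacemaker channels. They were the 87 genes, of 10912 named genes on the array, whose symbol in the platform table began with KCN, CACN, HCN and a digit, or SCN with a digit and the letter A or B. The rule itself used names only, but it was set with earlier results of these data known. For the 7 genes with more than 1 probe set, the brightest on average over the 12 arrays was taken. A total of 19 of the 87 had a mean level above 2.78 on the log2 scale, the median of the 27558 probe sets, and the other 68 had a mean at or below it. That share, 21.8%, compares with 53.5% of all named genes. KCNQ1 and KCNJ5 were not analysed here.

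Total RNA of infarcted heart was measured in Large White pigs with 1 microarray per pig. All animals carried an acute myocardial infarction (AMI), made by closing the left anterior descending coronary artery with a balloon and reopening it, and tissue of the left ventricular infarct was taken on day 7 after therapy. The 3 biogroups held 4 pigs each. AMI/S-endMSCs* received into the pericardial sac the secretome of human menstrual blood-derived mesenchymal stromal cells that had been primed with interferon gamma and tumor necrosis factor alpha, AMI/S-endMSCs received the secretome of the same kind of cells without priming, and AMI/Placebo received the vehicle. The study's own text calls these cells MenSCs. No uninfarcted heart and no tissue remote from the infarct was among the samples, so every comparison is between treated infarcts.

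Ion channels set the heartbeat. The L-type calcium channel, a pore (CACNA1C in the ventricle) with a beta and an alpha2delta subunit, admits the calcium that starts contraction. Inward rectifier potassium channels hold the resting potential, delayed rectifier and transient outward potassium channels end the action potential, and HCN channels drive pacemaking. In infarcted tissue many of these channels belong to surviving cardiomyocytes, while vessels, nerves, fibroblasts and leukocytes carry others. In a piece of tissue, fewer cells of a type and less RNA per cell cannot be told apart.

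The deposited values are log2 intensities after the authors' normalization, and they ran between 0.17 and 13.22. The interquartile range of an array was 1.81 to 2.46 in AMI/S-endMSCs*, 1.66 to 2.24 in AMI/S-endMSCs and 1.80 to 2.51 in AMI/Placebo. AMI/S-endMSCs replicate 1 stood apart, with the narrowest range and the lowest mean correlation with the other arrays (0.821, against 0.875 to 0.911 elsewhere). Of the 23 measured cardiomyocyte markers, 22 had a mean above that median in AMI/S-endMSCs*, 21 in AMI/S-endMSCs and 22 in AMI/Placebo. The precision of every value is limited by the 4 arrays per biogroup.

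By family, the named channel genes were 23 pore subunits of voltage-gated potassium channels (3 above the median), 14 potassium channel accessory subunits (3), 10 inward rectifiers (4), 9 two-pore potassium channels (0) and 6 calcium- or sodium-activated potassium channels (2). The calcium channels comprised 6 pores (3 above the median), 2 beta subunits (both), 3 alpha2delta subunits (1) and 6 gamma subunits (0). The sodium channels comprised 4 pores and 2 beta subunits, none of them above the median. HCN4 was above the median and HCN2 was not.

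**Figure D1:**
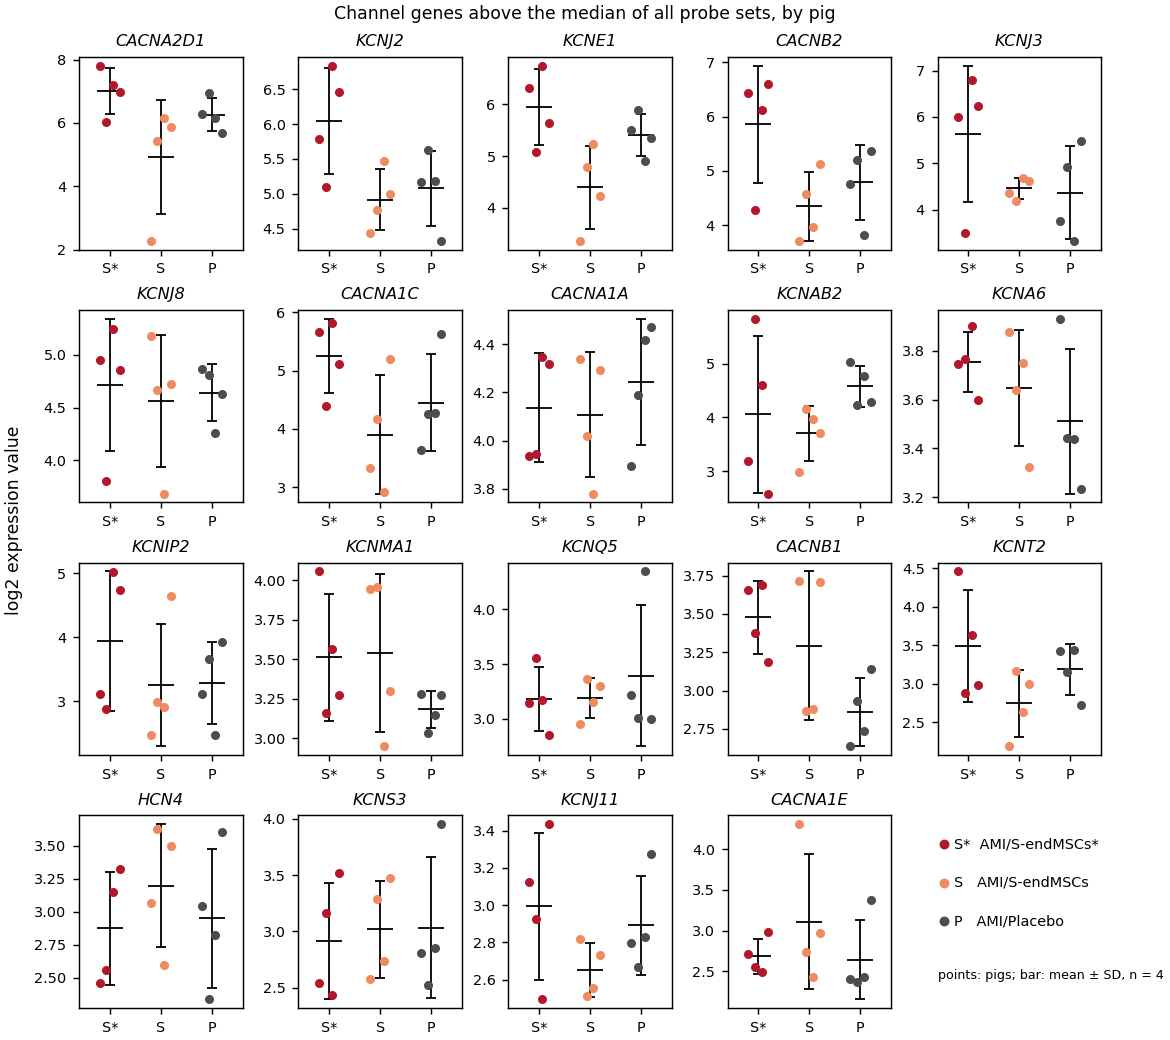
Log2 expression value of the 19 channel genes above the median in each pig (points), with the mean and SD of each biogroup (bars, n = 4), each panel on its own axis that does not start at 0. In CACNA2D1, CACNB2, KCNJ3 and KCNE1 the AMI/S-endMSCs* points include 1 low pig, replicate 2, and in CACNA2D1 the AMI/S-endMSCs replicate 1 lies at 2.27.

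Each pair of biogroups was compared with limma over all probe sets, and the word called stands for p under 0.05 before adjustment, which is the cut that the methods state. After Benjamini-Hochberg adjustment over all 27558 probe sets no channel gene passed 0.05 in any comparison, and the lowest adjusted p among them was 0.58. The 3 comparisons share their arrays in pairs, so the calls in one are not independent of the calls in another.

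Treatment with the primed secretome was compared with placebo first. Between AMI/S-endMSCs* and AMI/Placebo 4 of the 87 channel genes were called (4.6%), against 3.23% of all named genes. Among the 19 above the median 2 were called, KCNJ2 and CACNB1, both higher, against 2.38% of named genes above the median called higher. Below the median KCNA4 was higher and CACNA1D lower, 1 of 68 each, where 1.46% of named genes were called higher and 0.689% lower. Of the 19, 14 had a positive log2 fold change, and their median was 0.30, against -0.01 over all named genes above the median.

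Treatment with the unprimed secretome gave 6 calls of 87 between AMI/S-endMSCs and AMI/Placebo (6.9%), against 4.44% of all named genes. Above the median the only call was KCNE1, which fell, where 3.07% of named genes above the median were called lower. The remaining 5 calls, KCNIP1, CACNA2D2, KCNN1, KCNH2 and SCN2B, were higher and all lay below the median, where 4.33% of named genes were called higher. The median log2 fold change of the 19 was -0.14, the same as that of all named genes above the median (-0.14).

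Priming was tested by comparing both secretomes. Between AMI/S-endMSCs* and AMI/S-endMSCs 9 of 87 channel genes were called (10.3%), against 7.29% of all named genes. KCNE1, CACNA2D1, CACNB2, KCNJ2 and CACNA1C were higher, 5 of the 19 above the median (26.3%), where 8.07% of named genes above the median were called higher. KCNIP1, KCNN1, CACNA2D2 and CACNA2D4, all below the median, were lower, 4 of 68 (5.88%), where 3.51% of named genes at or below the median were called lower. With each array centred on its median the split was 7 higher and 3 lower, against 5 higher and 4 lower as deposited. Over all named genes 629 of 810 calls were higher after centring, against 525 of 795 as deposited. The median log2 fold change of the 19 was 0.34, against 0.11 over all named genes above the median.

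Over the 3 comparisons 6 of the 19 channel genes above the median were called at least once (31.6%, against 14.2% of named genes above the median), and 8 of the 68 at or below it (11.8%, against 9.1% of named genes at or below the median). The mean of AMI/S-endMSCs* was the highest of the 3 in 12 of the 19 (63.2%), against 38.6% of all named genes above the median. The mean of AMI/S-endMSCs was the highest in 33 of the 68 dim channel genes (48.5%), against 56% of all named genes at or below the median.

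**Figure D2:**
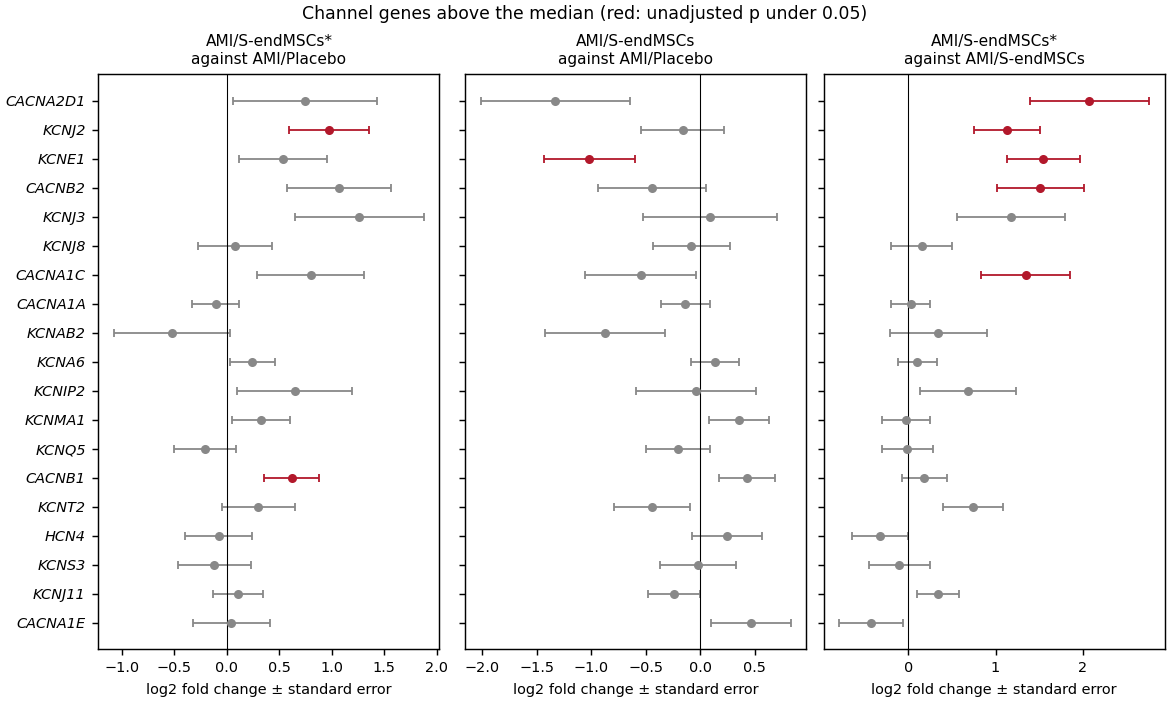
Log2 fold change (points) and its standard error (bars) from limma for the 19 channel genes above the median in the 3 comparisons, with genes in the order of their mean, each panel on its own horizontal axis. Red marks an unadjusted p under 0.05, reached by 2 genes in AMI/S-endMSCs* against AMI/Placebo, 1 in AMI/S-endMSCs against AMI/Placebo and 5 in AMI/S-endMSCs* against AMI/S-endMSCs.

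CACNA1C, the pore of the ventricular L-type calcium channel, had log2 values of 5.66, 4.40, 5.82 and 5.12 in the AMI/S-endMSCs* pigs, 3.33, 4.17, 2.91 and 5.20 in the AMI/S-endMSCs pigs and 3.64, 4.26, 4.27 and 5.62 in the AMI/Placebo pigs. Its replicates 1, 2 and 3 of AMI/S-endMSCs lay below every pig of AMI/S-endMSCs*, and replicate 4 lay among them. Between AMI/S-endMSCs* and AMI/S-endMSCs it was higher by 1.34 ± 0.51 (SE, limma unadjusted p = 0.0198, adjusted p = 0.609). That call was lost without any one of AMI/S-endMSCs* replicates 1 and 3 and AMI/S-endMSCs replicates 1 and 3 (unadjusted p from 0.0529 to 0.0719). Its log2 fold change was 0.80 (unadjusted p = 0.14) in AMI/S-endMSCs* and -0.54 (unadjusted p = 0.304) in AMI/S-endMSCs, each against AMI/Placebo. The first of these was called without AMI/Placebo replicate 4 (1.19, unadjusted p = 0.0311) and with array weights (1.20, unadjusted p = 0.0157).

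CACNB2, the main cardiac beta subunit, which brings the pore to the membrane, had 6.43, 4.28, 6.13 and 6.60 in AMI/S-endMSCs*, 3.72, 4.58, 3.98 and 5.12 in AMI/S-endMSCs and 4.77, 5.20, 3.83 and 5.37 in AMI/Placebo. Replicates 1, 3 and 4 of AMI/S-endMSCs* lay above all other pigs, and its replicate 2 lay inside the range of the other biogroups. It was higher in AMI/S-endMSCs* than in AMI/S-endMSCs by 1.51 ± 0.50 (SE, limma unadjusted p = 0.00911, adjusted p = 0.58). Against AMI/Placebo the log2 fold change of AMI/S-endMSCs* was 1.07 ± 0.50 and just missed the threshold (unadjusted p = 0.0507); without AMI/S-endMSCs* replicate 2 it was 1.60 (unadjusted p = 0.00158). It also passed without AMI/S-endMSCs replicate 4 or AMI/Placebo replicate 2 or 4 (unadjusted p from 0.0359 to 0.0486), with a replicate block (unadjusted p = 0.0419) and with array weights (unadjusted p = 0.0135).

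CACNB1, the beta subunit best known from skeletal muscle, had 3.66, 3.37, 3.69 and 3.19 in AMI/S-endMSCs*, 3.71, 2.87, 2.88 and 3.71 in AMI/S-endMSCs and 2.64, 2.93, 2.73 and 3.14 in AMI/Placebo. All 4 pigs of AMI/S-endMSCs* lay above all 4 of AMI/Placebo, with little distance between 3.19 and 3.14 at the nearest pair, while AMI/S-endMSCs had 2 pigs at each end. The difference between AMI/S-endMSCs* and AMI/Placebo was 0.62 ± 0.26 (SE, limma unadjusted p = 0.0323, adjusted p = 1). It missed the threshold without any one of AMI/S-endMSCs* replicates 1 and 3 and AMI/Placebo replicates 1 and 3 (unadjusted p from 0.071 to 0.0832). Biogroup ranges that did not overlap were found in this comparison for 3 of the 87 channel genes (CACNB1, KCNA4 and KCNRG), where 1.99% of all named genes had such ranges.

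CACNA2D1, the alpha2delta subunit of the cardiac channel, had 7.80, 6.03, 7.21 and 6.97 in AMI/S-endMSCs*, 2.27, 5.43, 6.15 and 5.87 in AMI/S-endMSCs and 6.27, 6.95, 6.15 and 5.67 in AMI/Placebo. Its value in AMI/S-endMSCs replicate 1, the array that stood apart, was more than 3 below that of any other pig. The gene was higher in AMI/S-endMSCs* than in AMI/S-endMSCs by 2.07 ± 0.68 (SE, limma unadjusted p = 0.00906, adjusted p = 0.58). Without that replicate the difference was 1.19 and the call held, as it did without any other single array (highest unadjusted p = 0.0308). In AMI/S-endMSCs against AMI/Placebo the log2 fold change was -1.33 ± 0.68 (unadjusted p = 0.0723), and it passed without AMI/S-endMSCs replicate 3 (-1.74, unadjusted p = 0.0289) or replicate 4 (-1.64, unadjusted p = 0.0439). Both of these fits kept AMI/S-endMSCs replicate 1 (2.27). The other AMI/S-endMSCs pigs had 5.43, 6.15 and 5.87, against 5.67 to 6.95 in AMI/Placebo, so the size of this difference rests largely on replicate 1.

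CACNA1A, the P/Q-type pore of nerve terminals, lay between 3.78 and 4.47 in the 12 pigs, and its log2 fold changes were -0.11, -0.14 and 0.03 in AMI/S-endMSCs* against AMI/Placebo, AMI/S-endMSCs against AMI/Placebo and AMI/S-endMSCs* against AMI/S-endMSCs. Its other probe set gave -0.02, 0.48 (unadjusted p = 0.0862) and -0.50 (unadjusted p = 0.0759) in the same order, so both sets did not move alike. The 6 gamma subunits, none above the median, had log2 fold changes between -0.32 and 0.36 and no call. Of named genes at or below the median, 9.1% were called in at least 1 comparison. CACNA1E, the R-type pore, had 2.71, 2.55, 2.49 and 2.98 in AMI/S-endMSCs*, 4.31, 2.73, 2.43 and 2.97 in AMI/S-endMSCs and 2.40, 2.36, 2.43 and 3.37 in AMI/Placebo, with 1 high pig in AMI/S-endMSCs and 1 in AMI/Placebo and no call. Its mean of 2.81 was just above the median. By biogroup only AMI/S-endMSCs (3.11) lay above it, and AMI/S-endMSCs* (2.68) and AMI/Placebo (2.64) lay below. The value of 4.31 was from AMI/S-endMSCs replicate 1, the array that stood apart. Among pores below the median, CACNA1G, a T-type pore, differed by 0.42 (unadjusted p = 0.143) in AMI/S-endMSCs* against AMI/Placebo.

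KCNJ2 encodes the inward rectifier Kir2.1, the main carrier of the resting current of ventricular muscle. Its values were 5.79, 5.10, 6.84 and 6.46 in AMI/S-endMSCs*, 4.43, 4.77, 5.47 and 4.99 in AMI/S-endMSCs and 5.17, 5.63, 5.18 and 4.32 in AMI/Placebo. Replicates 1, 3 and 4 of AMI/S-endMSCs* exceeded every pig of the other biogroups, and replicate 2 fell within their range. KCNJ2 rose by 0.97 ± 0.38 (SE) in AMI/S-endMSCs* against AMI/Placebo (limma unadjusted p = 0.0237, adjusted p = 1) and by 1.13 ± 0.38 against AMI/S-endMSCs (unadjusted p = 0.0104, adjusted p = 0.58), while AMI/S-endMSCs and AMI/Placebo differed by -0.16 (unadjusted p = 0.681). It was the only channel gene above the median called in both comparisons of AMI/S-endMSCs*, which share those 4 arrays. The call against AMI/Placebo was lost without AMI/S-endMSCs* replicate 3 (0.71, unadjusted p = 0.0882), AMI/S-endMSCs* replicate 4 (0.83, unadjusted p = 0.0668) or AMI/Placebo replicate 4 (0.72, unadjusted p = 0.0824), and the call against AMI/S-endMSCs held without any single array.

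KCNJ3 encodes Kir3.1, a subunit of the acetylcholine-gated channel that slows the heart under vagal control. It had 6.0, 3.49, 6.80 and 6.25 in AMI/S-endMSCs*, 4.36, 4.18, 4.68 and 4.62 in AMI/S-endMSCs and 3.75, 4.92, 3.33 and 5.48 in AMI/Placebo. Again 3 pigs of AMI/S-endMSCs* lay above all others and replicate 2 lay low, here below all but 1 pig. Its log2 fold change was 1.26 ± 0.61 (SE) against AMI/Placebo (limma unadjusted p = 0.0591) and 1.18 ± 0.61 against AMI/S-endMSCs (unadjusted p = 0.0767), and neither passed. Without AMI/S-endMSCs* replicate 2 both passed, at 1.98 (unadjusted p = 0.000609) and 1.89 (unadjusted p = 0.000881). The difference from AMI/Placebo also passed without AMI/Placebo replicate 4 (1.63, unadjusted p = 0.0226), and both passed with array weights (1.69 and 1.30, unadjusted p = 0.00868 and 0.0464).

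KCNJ8 and KCNJ11 encode the pores of the ATP-sensitive potassium channels, that of vessels and pericytes and that of cardiomyocytes, both of which open when ATP falls. KCNJ8 averaged 4.72 ± 0.63 in AMI/S-endMSCs*, 4.56 ± 0.63 in AMI/S-endMSCs and 4.64 ± 0.27 in AMI/Placebo (SD, n = 4 each). KCNJ11 averaged 2.99 ± 0.39, 2.65 ± 0.14 and 2.89 ± 0.26 in the same order. Neither was called, the largest log2 fold change of the pair being 0.34 ± 0.24 (SE) for KCNJ11 in AMI/S-endMSCs* against AMI/S-endMSCs (limma unadjusted p = 0.175). KCNJ11 was called in that comparison after quantile normalization (0.47, unadjusted p = 0.0484) and with the array's interquartile range as a covariate (0.53, unadjusted p = 0.0125), which also gave a call in AMI/S-endMSCs against AMI/Placebo (-0.48, unadjusted p = 0.0256). Their regulatory subunit ABCC9, the sulfonylurea receptor SUR2, differed by 0.94 in the same comparison (unadjusted p = 0.104).

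KCNE1, the accessory subunit that slows the opening of the KCNQ1 delayed rectifier, had 6.31, 5.07, 6.75 and 5.65 in AMI/S-endMSCs*, 3.36, 4.78, 5.22 and 4.22 in AMI/S-endMSCs and 5.50, 5.90, 4.91 and 5.34 in AMI/Placebo. Replicates 1, 2 and 4 of AMI/S-endMSCs lay below every pig of both other biogroups. It had the lowest p of the channel genes in the 3 comparisons, higher in AMI/S-endMSCs* than in AMI/S-endMSCs by 1.55 ± 0.42 (SE, limma unadjusted p = 0.00252, adjusted p = 0.58), and the call held without any single array. In AMI/S-endMSCs against AMI/Placebo KCNE1 fell by 1.02 on the log2 scale (SE 0.42, unadjusted p = 0.0302, adjusted p = 0.857). That second call was lost without AMI/S-endMSCs replicate 1 (-0.67, unadjusted p = 0.113), and also without AMI/S-endMSCs replicate 4 or AMI/Placebo replicate 1 or 2 (unadjusted p from 0.0578 to 0.0851). It was lost as well with the array's interquartile range as a covariate (-0.68, unadjusted p = 0.116).

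KCNIP2, the accessory subunit of the transient outward current of ventricular muscle, had 3.12, 2.88, 5.01 and 4.73 in AMI/S-endMSCs*, 2.47, 2.98, 2.91 and 4.65 in AMI/S-endMSCs and 3.11, 3.65, 2.47 and 3.93 in AMI/Placebo. The biogroups overlapped widely, with high and low pigs in each. Its log2 fold change of 0.65 ± 0.55 (SE) in AMI/S-endMSCs* against AMI/Placebo had a limma unadjusted p of 0.26. Against AMI/S-endMSCs it passed without AMI/S-endMSCs replicate 4 and under no other alternative (1.15, unadjusted p = 0.0444). KCND2 and KCND3, the pores of that current, lay below the median and had log2 fold changes between -0.46 and 0.02 without a call.

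KCNAB2, a beta subunit of Shaker-type potassium channels, had 3.19, 5.83, 4.61 and 2.59 in AMI/S-endMSCs*, 2.99, 4.16, 3.97 and 3.71 in AMI/S-endMSCs and 5.03, 4.24, 4.76 and 4.29 in AMI/Placebo. AMI/S-endMSCs* spanned the whole range of the 12 pigs, and all 4 pigs of AMI/S-endMSCs lay below all 4 of AMI/Placebo. That difference, -0.87 ± 0.55 (SE), had a limma unadjusted p of 0.136 with the spread of all 3 biogroups, and 0.017 with the spread of AMI/S-endMSCs and AMI/Placebo alone. It passed as well with the cardiomyocyte marker mean as a covariate (-1.15, unadjusted p = 0.0475) and without AMI/S-endMSCs* replicate 2 (unadjusted p = 0.0497). Without that replicate AMI/S-endMSCs* was also lower than AMI/Placebo (-1.12, unadjusted p = 0.0233). Ranges that did not overlap were found in that comparison for 3 of 87 channel genes (KCNAB2, CACNA2D2 and SCN2B), where 2.73% of all named genes had them.

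Among the other potassium channel genes above the median, KCNT2, a sodium-activated channel, had 4.46, 2.88, 3.63 and 2.98 in AMI/S-endMSCs*, 2.19, 3.17, 2.63 and 3.0 in AMI/S-endMSCs and 3.43, 3.15, 3.44 and 2.73 in AMI/Placebo. Both secretome biogroups overlapped, and its log2 fold change of 0.74 ± 0.35 (SE) between them just missed the threshold (limma unadjusted p = 0.0505). It passed without any one of AMI/S-endMSCs* replicates 2 and 4, AMI/S-endMSCs replicate 2 and AMI/Placebo replicate 4 (unadjusted p from 0.0206 to 0.0484), with arrays centred on their medians and with array weights. KCNMA1, the large-conductance calcium-activated channel of smooth muscle, averaged 3.51 ± 0.40, 3.54 ± 0.50 and 3.18 ± 0.12 in AMI/S-endMSCs*, AMI/S-endMSCs and AMI/Placebo (SD, n = 4 each) and was not called. KCNA6, KCNQ5, KCNS3 and HCN4, the main sinoatrial pacemaker subunit, had log2 fold changes between -0.32 and 0.25 in the 3 comparisons and no call.

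The dim channel genes are read with more care, because their values lie where the array separates signal from background least. KCNA4, the pore Kv1.4 of the slow transient outward current, had 2.53, 2.53, 3.62 and 3.25 in AMI/S-endMSCs* and 2.36, 2.30, 2.39 and 2.02 in AMI/Placebo. The ranges did not overlap, and the difference was 0.71 ± 0.30 (SE, limma unadjusted p = 0.0336). That call was lost without any one of AMI/S-endMSCs* replicates 3 and 4 and AMI/Placebo replicates 2 and 4 (unadjusted p from 0.0532 to 0.121), with a replicate block (unadjusted p = 0.0523) and with the cardiomyocyte marker mean as a covariate (unadjusted p = 0.0781). CACNA1D, the Cav1.3 pore of pacemaker and atrial cells, fell by 0.54 on the log2 scale (SE 0.24, unadjusted p = 0.0419) in the same comparison, and its AMI/S-endMSCs* pigs lay between 1.5 and 1.66, against 1.58 to 2.46 in AMI/Placebo. Its call was lost without any one AMI/S-endMSCs* pig, AMI/S-endMSCs replicate 4 or AMI/Placebo replicate 1 or 3 (unadjusted p from 0.0504 to 0.13) and with the marker covariate (unadjusted p = 0.128).

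KCNH2, the pore of the rapid delayed rectifier hERG, had 3.18, 2.78, 3.22 and 2.70 in AMI/S-endMSCs and 1.87, 2.16, 2.06 and 2.95 in AMI/Placebo. Replicate 4 of AMI/Placebo lay inside the AMI/S-endMSCs range and the other 3 lay below it, and KCNH2 was higher by 0.71 ± 0.29 (SE, limma unadjusted p = 0.027). KCNIP1, a relative of KCNIP2 known from neurons, had 2.44, 3.16, 1.79 and 2.56 in AMI/S-endMSCs and 1.93, 1.77, 1.44 and 1.78 in AMI/Placebo, a difference of 0.76 ± 0.27 (unadjusted p = 0.0137). KCNN1, a small-conductance calcium-activated channel, CACNA2D2, another alpha2delta subunit, and SCN2B, a sodium channel beta subunit, were higher by 0.71, 0.55 and 0.52 (unadjusted p = 0.0238, 0.0223 and 0.0348).

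KCNIP1, KCNN1 and CACNA2D2 were also called lower in AMI/S-endMSCs* than in AMI/S-endMSCs, by -0.76 (limma unadjusted p = 0.0134), -0.76 (unadjusted p = 0.0172) and -0.53 (unadjusted p = 0.027), a comparison with the same 4 AMI/S-endMSCs arrays. CACNA2D4, an alpha2delta subunit known from the retina, was lower by -0.46 (unadjusted p = 0.047). The CACNA2D4 call ended in 15 of 21 alternatives, 8 of them leaving out 1 array and the others median centring, a trend in the moderation, array weights, both biogroups alone, a replicate block and either covariate (unadjusted p from 0.0509 to 0.25). Ranges that did not overlap were found there for 3 of 87 channel genes (CACNA2D2, CACNA2D4 and KCNC1, all lower in AMI/S-endMSCs*), where 3.54% of all named genes had them. None of the 5 genes above the median that were called higher had ranges apart. In each of them AMI/S-endMSCs* replicate 2 lay below the highest AMI/S-endMSCs pig. In CACNA1C AMI/S-endMSCs* replicate 4 (5.12) also lay below AMI/S-endMSCs replicate 4 (5.20).

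The two-pore potassium channels and the sodium channel pores gave no call in any comparison as deposited. Over all named genes at or below the median 9.1% were called at least once, so no call in so few genes lies near that share. The 9 two-pore channels, which carry background currents, had log2 fold changes between -0.44 and 0.37 over the 3 comparisons, and the 4 sodium channel pores, SCN1A, SCN4A, SCN7A and SCN8A, between -0.31 and 0.51. Some passed under an alternative. In AMI/S-endMSCs against AMI/Placebo KCNK7 passed without AMI/S-endMSCs replicate 1 (-0.79, limma unadjusted p = 0.0341, against -0.44 with it) and with the array's interquartile range as a covariate (-0.79, unadjusted p = 0.0362), KCNK9 with that covariate (-0.83, unadjusted p = 0.0145) and SCN1A with array weights (0.58, unadjusted p = 0.0311). In AMI/S-endMSCs* against AMI/Placebo SCN7A passed without AMI/S-endMSCs* replicate 2 (0.71, unadjusted p = 0.0347) or AMI/Placebo replicate 2 (0.69, unadjusted p = 0.0415). KCNA5, the pore of the ultrarapid atrial current, had 3.93, 2.57, 1.82 and 2.04 in AMI/S-endMSCs and 1.63, 1.64, 2.22 and 1.64 in AMI/Placebo, a difference of 0.81 ± 0.40 (SE, limma unadjusted p = 0.0621) in which AMI/S-endMSCs replicate 1 lay highest. It passed without AMI/S-endMSCs replicate 3 or 4 or AMI/Placebo replicate 3 (unadjusted p from 0.0205 to 0.0472). All of these fits kept AMI/S-endMSCs replicate 1 (3.93), and the other AMI/S-endMSCs pigs had 2.57, 1.82 and 2.04. KCNA3 and KCNN4, potassium channels of lymphocytes and macrophages, differed by -0.43 (unadjusted p = 0.156) in AMI/S-endMSCs* against AMI/Placebo and by 0.49 (unadjusted p = 0.0561) in AMI/S-endMSCs against AMI/Placebo. KCNN4 passed without AMI/S-endMSCs replicate 3 or AMI/Placebo replicate 4 (unadjusted p = 0.0327 and 0.0489) and with a replicate block (unadjusted p = 0.0489).

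The dim channel genes as a set moved with the contrast of the array. Their mean deviation from each gene's mean was 0.255 in AMI/S-endMSCs replicate 1, the array with the narrowest interquartile range (1.66), where 16 of the 68 had their highest value, and it was between -0.183 and 0.195 on the other 11 arrays. Over all named genes at or below the median the deviation on that array was 0.302. With the interquartile range of each array in the limma fit, KCNH2 (0.45, unadjusted p = 0.0965), KCNN1 (0.49, unadjusted p = 0.0819) and CACNA2D2 (0.43, unadjusted p = 0.0574) were no longer called in AMI/S-endMSCs against AMI/Placebo, and KCNIP1 (0.74, unadjusted p = 0.0244) and SCN2B (0.51, unadjusted p = 0.0475) were. SCN2B was not called with arrays centred on their medians (0.42, unadjusted p = 0.0772) or quantile-normalized again (0.42, unadjusted p = 0.0769). The calls of KCNH2, KCNN1, CACNA2D2 and SCN2B were also lost without AMI/S-endMSCs replicate 1 and, over all 12 arrays left out in turn, in 5, 4, 2 and 5 cases, and that of KCNIP1 was lost only without AMI/S-endMSCs replicate 2 (0.53, unadjusted p = 0.055).

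**Figure D3:**
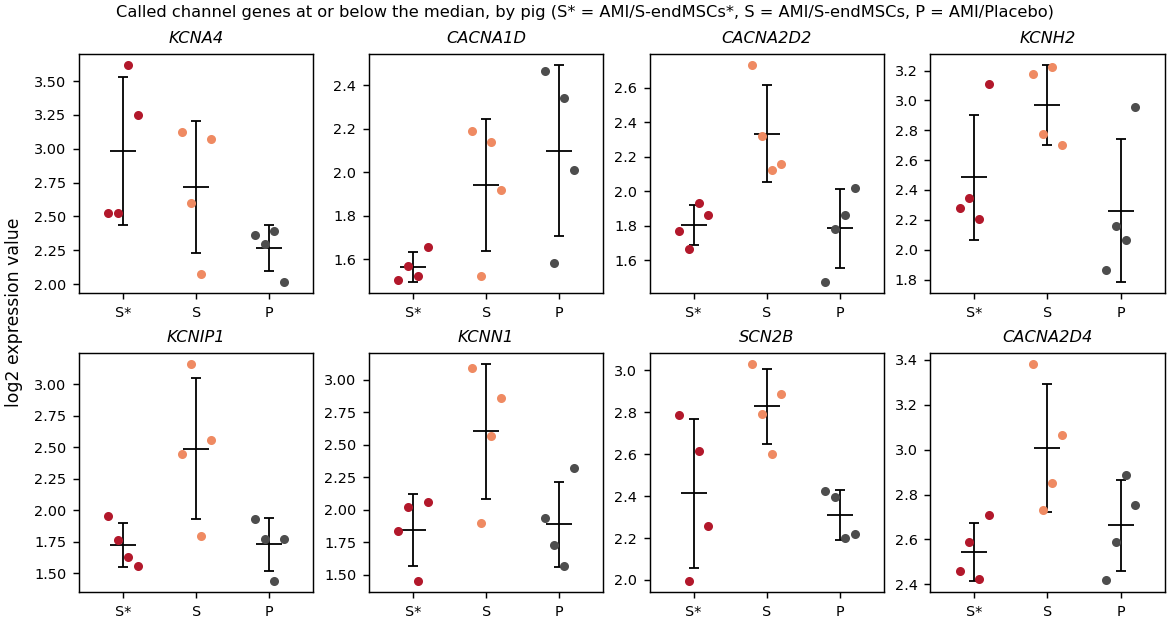
Log2 expression value in each pig (points) of the 8 channel genes at or below the median that were called in at least 1 comparison, with the mean and SD of each biogroup (bars, n = 4), each panel on its own axis that does not start at 0. KCNIP1, KCNN1, CACNA2D2, KCNH2, SCN2B and CACNA2D4 have their highest mean in AMI/S-endMSCs.

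RNA of 23 measured of 31 listed cardiomyocyte markers was set beside the channels. Such RNA does not give the amount of muscle in a piece by itself. The marker mean was the mean over these genes of the log2 deviation from each gene's own mean. It was 1.80, -1.12, 1.63 and 1.16 in the AMI/S-endMSCs* pigs, -1.81, -0.43, -0.95 and 0.12 in the AMI/S-endMSCs pigs and -0.15, 0.39, -1.31 and 0.67 in the AMI/Placebo pigs. AMI/S-endMSCs* replicate 2, which lay low in KCNJ2, KCNJ3, KCNE1 and CACNB2, was thus among the pieces with a low marker mean. Of the 23 markers, 17 were called higher in AMI/S-endMSCs* than in AMI/S-endMSCs, where 8.07% of named genes above the median were. Another count, AMI/S-endMSCs* against AMI/Placebo, gave 3 called higher, where 2.38% of those genes were. In AMI/S-endMSCs against AMI/Placebo 0 were called, where 4.17% of those genes were. Yet 0 of the 23 had a positive log2 fold change there (median -0.576), where 33.5% of those genes had one.

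Several channel genes followed this mean across the 12 pigs. The correlation was tested by two-sided permutation with 100000 resamples, adjusted over the 5812 named genes above the median that were not markers. Of the 19 channel genes 5 passed with a positive r and 0 with a negative r, against 3.56% and 0.723% of those genes, and the median r of the 19 was 0.32, against 0.01 over all of them. At an unadjusted permutation p under 0.05, 8 of the 19 passed with a positive r, against 11.2% of the genes.

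CACNB2 followed the markers most closely (r = 0.968, rho = 0.972, adjusted permutation p = 0.00224, from the smallest p that the permutations can give, 1e-05). Without the 2 pigs farthest from the median marker mean, replicate 1 of AMI/S-endMSCs* and of AMI/S-endMSCs, r was 0.956, and within biogroups it was 0.959. KCNJ3 was next (r = 0.856, rho = 0.846, adjusted permutation p = 0.0199), with an r of 0.918 without the same 2 pigs and 0.845 within biogroups. In both genes the low value of AMI/S-endMSCs* replicate 2 thus stood beside a low marker mean.

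CACNA1C (r = 0.808, rho = 0.748), KCNE1 (0.791, rho = 0.804) and CACNA2D1 (0.731, rho = 0.678) passed as well (adjusted permutation p = 0.0459, 0.0459 and 0.0438), and their r fell short of the adjusted threshold without the same 2 pigs, at 0.725, 0.646 and 0.586. KCNIP2 missed on r (0.732, adjusted permutation p = 0.106) and passed on ranks (rho = 0.874, adjusted p = 0.0294), with an r of 0.906 without those 2 pigs. Its value in AMI/S-endMSCs* replicate 1, the piece richest in muscle markers, was 3.12. Within biogroups no channel gene passed after adjustment, with an exact permutation within biogroups and r of 0.701 for CACNA1C, 0.680 for KCNE1, 0.586 for CACNA2D1 and 0.706 for KCNIP2.

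KCNJ2 followed the markers less closely (r = 0.640, rho = 0.545, adjusted permutation p = 0.196), with an r of 0.561 without the 2 pigs and 0.420 within biogroups. KCNT2 had r = 0.641, which was 0.228 without them, so that this value rests on those pigs. KCNJ8 had r = 0.502 with all pigs and 0.826 without them. At the lower end were KCNQ5 (-0.438), KCNAB2 (-0.277), CACNA1E (-0.241), KCNA6 (-0.092), KCNS3 (0.047) and HCN4 (0.099), none with an adjusted permutation p under 0.5.

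**Figure D4:**
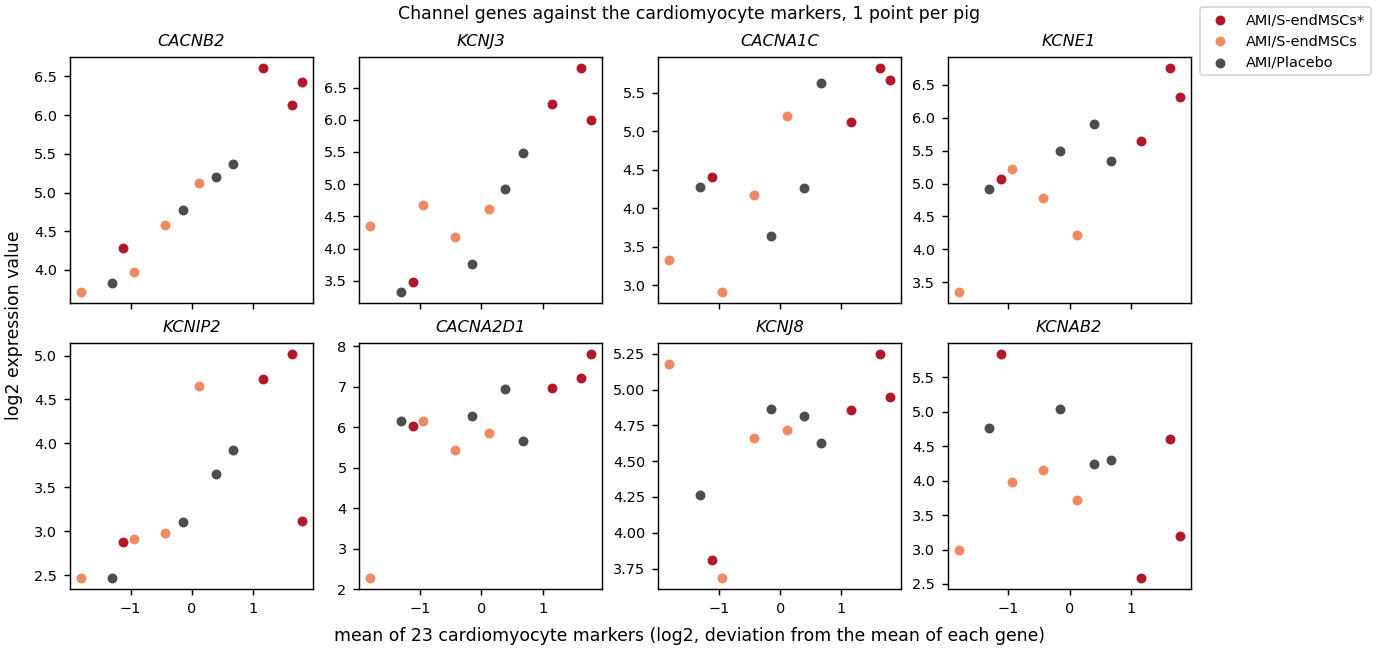
Log2 expression value of 8 channel genes (vertical axes, each its own and not starting at 0) against the mean of 23 cardiomyocyte markers (horizontal axis, log2 deviation), 1 point per pig. CACNB2 runs along a line through all 3 biogroups (r = 0.968), KCNIP2 departs from its line at AMI/S-endMSCs* replicate 1 (3.12), and KCNAB2 shows no such line (r = -0.277).

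With the marker mean as a covariate in the limma fit, none of the 5 calls above the median between AMI/S-endMSCs* and AMI/S-endMSCs remained. The loss was not limited to channel genes. Of 10912 named genes, 795 were called in that comparison without the covariate and 298 with it. CACNB2 differed by 0.28 (unadjusted p = 0.346, against 1.51 without the covariate) and CACNA1C by 0.42 (unadjusted p = 0.409, against 1.34). CACNA2D1 differed by 1.01 (unadjusted p = 0.185, against 2.07), KCNE1 by 0.83 (unadjusted p = 0.0717, against 1.55) and KCNJ2 by 0.74 (unadjusted p = 0.128, against 1.13). Against AMI/Placebo, KCNJ2 and CACNB1 in AMI/S-endMSCs* differed by 0.74 (unadjusted p = 0.0866) and 0.54 (unadjusted p = 0.0821), and KCNE1 in AMI/S-endMSCs by -0.72 (unadjusted p = 0.0633). A p that misses the threshold does not show that values did not differ, and the covariate itself differs between the biogroups.

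Other cell types were measured the same way. The 10 measured macrophage and monocyte markers averaged -0.345 ± 0.441 in AMI/S-endMSCs*, 0.0408 ± 0.343 in AMI/S-endMSCs and 0.304 ± 0.424 in AMI/Placebo (log2 deviation, SD, n = 4 each), and 3 of them were called lower in AMI/S-endMSCs* against AMI/Placebo and 1 lower against AMI/S-endMSCs. The 9 measured fibroblast and scar matrix markers averaged -0.256 ± 1.07, -0.0985 ± 0.728 and 0.355 ± 0.613 in the same order, with 1 called lower in each secretome biogroup against AMI/Placebo. Of the 19 channel genes, 1 followed the scar markers after adjustment with a positive r, KCNAB2 (r = 0.776, rho = 0.629, adjusted permutation p = 0.0352), where 9.13% of named genes above the median did. Its r was 0.506 without AMI/S-endMSCs* replicate 4 and AMI/S-endMSCs replicate 1, the 2 pigs farthest from the median scar marker mean, so that the relation rests on them. Of the 6 measured smooth muscle and pericyte markers 2 were called lower in AMI/S-endMSCs* against AMI/Placebo and 1 lower against AMI/S-endMSCs, and of the 5 measured endothelial markers 1 was called lower in AMI/S-endMSCs against AMI/Placebo. Over all named genes above the median, 1.8% were called lower in AMI/S-endMSCs* against AMI/Placebo. The share called lower was 1.58% in AMI/S-endMSCs* against AMI/S-endMSCs and 3.07% in AMI/S-endMSCs against AMI/Placebo. None of the 6 measured T cell markers was called in the 3 comparisons, where 11.8% of all named genes were called at least once. None of the 5 measured neuron and Schwann cell markers was above the median, and 1 of them was called higher in AMI/S-endMSCs* against AMI/Placebo. There 1.46% of named genes at or below the median were called higher. The part of these cells in the channel calls was not tested.

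Of 44 listed partners of these channels in cardiac excitation, 25 were measured, and 23 of these were above the median. Between AMI/S-endMSCs* and AMI/S-endMSCs 6 of the 25 were called higher and 0 lower, where 8.07% of named genes above the median were called higher. Without the partners that are also cardiomyocyte markers, 4 of 23 were called higher. ATP1B1, the beta subunit of the sodium pump, differed by 1.38 ± 0.38 (SE, limma unadjusted p = 0.00256), ANK3, an ankyrin that anchors sodium channels, by 2.05 ± 0.69 (unadjusted p = 0.0105), and PKP2, a desmosomal plakophilin, by 1.09 ± 0.39 (unadjusted p = 0.0152). The others were TBX5 (0.79), a transcription factor of the conduction system, and ATP2A2 (1.19) and RYR2 (1.82), the calcium pump and release channel of the sarcoplasmic reticulum, which are also in the cardiomyocyte marker list. In AMI/S-endMSCs* against AMI/Placebo only ATP1B1 was called (1.16 ± 0.38, unadjusted p = 0.00817), and in AMI/S-endMSCs against AMI/Placebo none was called. GJA1, the main ventricular gap junction protein, differed by 0.70 in AMI/S-endMSCs* against AMI/S-endMSCs and was not called (unadjusted p = 0.192).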

How the data were processed

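Total RNA of 12 infarcts was labelled and hybridised to porcine Affymetrix gene arrays, 1 per pig. The authors normalized the arrays by RMA in the oligo package and deposited log2 expression values, 1 per probe set and array, without detection calls; tool versions and the genome build are not given in the sources used here. Of 27558 probe sets, 11982 had 1 gene symbol in the platform table, 373 had several and 15203 were unnamed, and only those with 1 symbol were used as genes. Of the 87 channel genes 77 had an Entrez identifier, 73 of which were in RefSeq under the same symbol.

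Group means were fitted to all 12 arrays with limma 3.58.1 (R 4.3.3, lmFit and eBayes), without covariates, and 3 contrasts were tested. The fit was tested on simulated data. Nothing in the sources says that replicates shared a batch, so p-values measure the spread between pigs. Correlations used Python 3.11.15 with numpy 2.4.6. They were planned with adjustment over the 19 channel genes above the median and are given adjusted over all named genes above the median. Genes named were those above the median that were called, cardiac and non-muscle channels from 2 lists, and the 6 with the highest and lowest r. KCNRG and KCNC1 were named after their values were seen. The members, gene lists and marker lists were chosen with earlier results of these data known. Alternatives were a replicate block, leaving out each array, array weights, covariates, arrays centred on their medians or quantile-normalized again, a trend in the moderation, probe sets above the median only, the mean over a gene's probe sets and a fit to the compared biogroups alone. The array's interquartile range as a covariate was added after seeing the data. Sequences were not used here.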

Additional observations from a re-analysis of the deposited data

Results flagged for a closer look

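Of 57 sets of 4 values (19 channel genes above the median in 3 biogroups), 2 had 1 pig far from the other 3 by Dixon's criterion, and chance gives about 1 in 20. CACNA1E, the R-type calcium channel pore, was 3.37 in AMI/Placebo replicate 4, where the next highest pig of that biogroup had 2.43, a gap of 0.932 of the range. KCNQ5, an M-current potassium channel, was 4.35 in AMI/Placebo replicate 3, where the next had 3.21, a gap of 0.84 of the range. The other, dimmer KCNQ5 probe set did not set that pig apart, with 1.96, 2.21, 2.49 and 2.37 in AMI/Placebo replicates 1 to 4. Neither gene was called in any comparison.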

How the results depend on the processing

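Among 1485 checks of single named genes, 1373 kept their side of the threshold, 83 lost a call, 29 gained one and 0 changed direction while called. The counts of 4, 6 and 9 called channel genes (AMI/S-endMSCs* against AMI/Placebo, AMI/S-endMSCs against AMI/Placebo, AMI/S-endMSCs* against AMI/S-endMSCs) became 2, 1 and 5 with only the 19 genes above the median tested, and 0, 0 and 0 with an adjusted p under 0.05. With the cardiomyocyte marker mean as a covariate they were 1, 6 and 3, and the 1 was KCNJ14, with 0 of the 4 original genes. Over all named genes that covariate gave 205, 469 and 298 calls, against 353, 484 and 795. Array weights gave 8 in the first, where calls over all 10912 named genes went from 353 to 953. Leaving out 1 array gave 0 to 7, 2 to 9 and 6 to 12. Over all named genes it gave 229 to 864, 264 to 1069 and 518 to 1109, so these counts moved array-wide. The 0 was without AMI/S-endMSCs* replicate 3 and the 7 without AMI/S-endMSCs* replicate 2, where all named genes gave 285 and 864. AMI/S-endMSCs* replicate 4 gave 1 and AMI/Placebo replicates 1 and 3 gave 2 each when left out. In the second, AMI/S-endMSCs replicate 1 gave 2 and AMI/Placebo replicates 1 and 2 gave 3 each. With the array's interquartile range as a covariate the second split was 2 higher and 3 lower, against 5 higher and 1 lower. Over all named genes 197 of 375 calls were higher with it, against 284 of 484. The 5 channel genes that followed the cardiomyocyte markers became 0 within biogroups, 3 by rank and 3 without the 2 farthest pigs, and 1 to 4 when 1 array was left out, with CACNB2 present in each of those 12 counts. Whether the replicate numbers pair the pigs is not stated, and correlations of deviations cannot settle it. They were -0.184 to 0.397 (mean 0.049) for the same number and -0.473 to 0.391 (mean -0.015) for different numbers. Of the 12 arrays, 4 were closest to their own number. A replicate block gave 4, 7 and 8 calls, and 409, 536 and 829 over all named genes. Dim channel genes lie near background, and 4 arrays per biogroup limit every estimate.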

Other observations

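Channel genes were also set against the markers of 4 other cell types, each over the 12 pigs with permutation p-values adjusted over all named genes above the median. CACNA1E ran against the fibroblast and scar matrix markers, with r = -0.729 (adjusted permutation p = 0.0808), rho = -0.930 (adjusted p = 0.00672) and r = -0.909 without the 2 farthest pigs. Within biogroups its r was -0.790 (exact permutation, adjusted p = 0.0139). By biogroup, the mean of CACNA1E was above the median only in AMI/S-endMSCs (3.11). KCNJ11 had r = -0.692 with the scar markers (adjusted permutation p = 0.0827) and -0.843 within biogroups (adjusted p = 0.03). The scar marker mean was lowest in AMI/S-endMSCs* replicate 4 (-1.76), AMI/S-endMSCs replicate 1 (-1.09) and AMI/Placebo replicate 4 (-0.55). These arrays also had the narrowest interquartile ranges (1.81, 1.66 and 1.80). CACNA1E (2.98, 4.31 and 3.37) and KCNJ11 (3.44, 2.82 and 3.27) had their biogroup's highest value there. The part of the interquartile range in both relations was not tested. KCNMA1 had r = -0.899 with the 5 measured endothelial markers, which did not pass after adjustment (adjusted permutation p = 0.321). The cause of these relations was not tested.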
